A study of Mus musculus with 21 samples.

Results

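Interferon-stimulated genes and the genes of antigen presentation were followed across left ventricular RNA-seq libraries of male C57BL/6J mice. The 38 genes were chosen by symbol as a list of 25 interferon-stimulated genes, 8 MHC class I genes and 5 MHC class II genes. They were found by Ensembl ID among the 22136 genes of the count table, and all 38 had at least 10 counts in at least 3 libraries, the filter that 12685 genes passed. The members and their classes were named without reference to a measured value, but with earlier results of these data known.

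Hearts were taken 8 weeks after transverse aortic constriction (TAC), a narrowing of the aortic arch that loads the left ventricle with pressure, or after a sham operation. Semaglutide (Sema), a GLP-1 receptor agonist, or vehicle was injected once a day. It was given in TAC 8W + Sema 8W and Sham + Sema 8W for all 8 weeks, and for the last 4 weeks in TAC 8W + Sema 4W and in Sham + Sema 4W. TAC 8W and the shams had no Sema. The labels give a daily dose of 60 mg/kg, where the methods of the study use µg/kg, and they give no duration for the libraries taken here as Sham + Sema 8W. Each of these groups had 3 libraries except the shams, whose 6 libraries were kept apart by their numbers as Sham 4-6 and Sham 1-3. No label says that each library is a separate mouse, so p-values measure the spread between libraries, which may in part be technical.

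Total counts per library were 8897837 to 17170139 (median 12933772). The libraries fell into a first set of 12 (both 8-week Sema groups, TAC 8W and Sham 1-3), in which 20.2% to 40.8% of counts were mitochondrial, and a second set of 9 (both 4-week Sema groups and Sham 4-6) with 43.8% to 54.9%. The labels do not name these sets, which follow the numbering of the samples. The count columns of TAC 8W + Sema 8W are marked "high" and those of both 4-week groups "M", and no source explains either mark. They were matched to their samples by inference and elimination, so every reading of 8 against 4 weeks rests on these matches. TAC 8W + Sema 4W replicate 3 stood apart from the other replicates of its group in how its levels ran with transcript length (Spearman rho over genes 0.449, against -0.219 and -0.207). Sham + Sema 8W replicate 3 stood apart in the same measure (-0.407, against 0.177 and 0.27) and had the highest mitochondrial share of the first set (40.8%). The labels call the material cardiomyocytes, whereas the methods of the study name left ventricular tissue. Cardiomyocyte markers summed to 40200 to 147000 CPM (the usual normalised read count, scaled by the effective size of each library), and markers of macrophages, endothelial cells, fibroblasts, mural cells and red cells were present in every library.

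Interferons are secreted proteins that signal through cell surface receptors, JAK kinases and STAT transcription factors. Type I interferon acts on the interferon-stimulated response element (ISRE) through a complex that holds STAT2 and IRF9, and interferon gamma acts on the gamma-activated site (GAS) and through IRF1. Their targets include antiviral effectors, guanylate-binding proteins (GBPs), immunity-related GTPases and the machinery that loads peptides onto MHC class I molecules, which nearly all cells carry. MHC class II molecules are carried mainly by professional antigen-presenting cells such as dendritic cells, B cells and part of the macrophages, and their transcription depends on the coactivator Ciita. In heart tissue these genes can be transcribed by resident macrophages and other non-muscle cells as well as by cardiomyocytes. In bulk tissue these counts cannot tell fewer cells of a type from less RNA per cell.

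Promoter windows of RefSeq (build GRCm38.p6, 250 bases before and 50 after the transcription start, strand of the gene) were found for 30 of the 38 members, 35 windows in all since some genes have several starts. Both strands were searched for GAAANNGAA, the core of the ISRE, for TTCNNNGAA (GAS) and for GGANNTTCC, a core of NF-kB sites. The ISRE core stood in 17 of the 35 member windows, from 17 of the 30 members (56.7%), against 8.56% of all 32851 windows of this length. GAS stood in 7 of the 35 windows, from 7 members (23.3%, against 8.3% of windows), and the NF-kB core in 5, from 5 members (16.7%, against 4.26%). The member percentages count genes with a match in any of their windows and the background counts single windows, so the 2 measures differ. The ISRE core was found in 15 of 22 interferon-stimulated members, 2 of 6 class I members and 0 of 2 class II members. Windows of 4 genes are shown because the results below turn on these genes: Gbp3 (chr3:142559794-142560093, plus strand) and Gbp7 (chr3:142530086-142530385, plus strand) among the GBPs, H2-T23 (chr17:36032652-36032951, minus strand) in class I and H2-Eb1 (chr17:34305617-34305916, plus strand) in class II. Capitals mark the motif matches.
Gbp3: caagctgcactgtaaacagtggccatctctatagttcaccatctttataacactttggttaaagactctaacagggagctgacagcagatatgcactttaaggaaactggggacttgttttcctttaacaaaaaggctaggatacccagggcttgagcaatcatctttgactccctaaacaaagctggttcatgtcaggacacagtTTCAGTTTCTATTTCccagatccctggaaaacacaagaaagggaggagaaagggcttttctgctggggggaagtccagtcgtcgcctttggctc
Gbp7: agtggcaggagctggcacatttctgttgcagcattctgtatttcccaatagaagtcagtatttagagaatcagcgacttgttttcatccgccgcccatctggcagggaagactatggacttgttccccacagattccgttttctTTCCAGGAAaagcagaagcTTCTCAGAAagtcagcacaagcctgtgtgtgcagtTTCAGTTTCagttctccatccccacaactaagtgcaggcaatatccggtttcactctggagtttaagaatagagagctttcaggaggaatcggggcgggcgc
H2-T23: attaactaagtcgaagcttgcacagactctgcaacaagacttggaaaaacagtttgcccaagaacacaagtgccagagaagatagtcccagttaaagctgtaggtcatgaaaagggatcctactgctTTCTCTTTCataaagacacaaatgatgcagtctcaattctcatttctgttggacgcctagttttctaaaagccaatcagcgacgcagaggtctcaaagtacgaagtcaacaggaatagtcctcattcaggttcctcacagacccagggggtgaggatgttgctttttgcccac
H2-Eb1: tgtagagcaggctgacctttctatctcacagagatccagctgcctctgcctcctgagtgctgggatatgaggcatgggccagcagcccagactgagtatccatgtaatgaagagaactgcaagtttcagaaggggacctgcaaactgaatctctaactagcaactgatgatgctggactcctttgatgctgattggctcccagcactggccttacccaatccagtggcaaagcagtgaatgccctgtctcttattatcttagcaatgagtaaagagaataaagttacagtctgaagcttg
The Gbp3 capitals are 2 ISRE cores that overlap, both read on the strand opposite to the one printed. In Gbp7 the first 2 stretches are GAS matches and the last is an ISRE core, again on the opposite strand. H2-T23 held 1 ISRE core on the strand opposite to the gene, 123 bases before the start, and H2-Eb1 held none of the 3 motifs. A second Gbp3 window (chr3:142560106-142560405) held none of the 3 motifs. The bases just after the Gbp7 start shown, and after this second Gbp3 start, were not found in the annotated transcripts of their genes. A match is a string of letters, not a measured binding site.

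Per length of transcript, the class I light chain B2m had the highest mean level of the members (470 CPM per kb over all libraries), followed by the classical class I heavy chains H2-D1 (126 CPM per kb) and H2-K1 (113 CPM per kb). Cd74, the invariant chain that fills the class II groove before a peptide does, was at 73.2 CPM per kb. Among the interferon-stimulated members the membrane protein Bst2, which tethers budding viruses, stood highest (37.8 CPM per kb). Gbp7 (0.102 CPM per kb) and the class II coactivator Ciita (0.114 CPM per kb) were the lowest, and Gbp7 reached 10 counts in only 5 of the 21 libraries. The interferons themselves were near absent: of 21 interferon genes listed, none passed the filter, and over all libraries together Ifng had 2 counts, Ifnk 1 and the other 19 had 0.

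The members changed most often in TAC 8W + Sema 4W against Sham + Sema 4W, the comparison of constricted and sham-operated hearts under late Sema. In edgeR's quasi-likelihood test with Benjamini-Hochberg adjustment over all genes, 7 of 38 members fell and 0 rose, while 1.44% of all 12685 genes fell and 3.37% rose. The 7 were the GTPases Gbp2 and Gbp3, the class I genes H2-T23 and Tap1 and the class II genes H2-Aa, H2-Ab1 and H2-Eb1. Of the members, 20 were lower and 0 higher at an unadjusted p under 0.05, against 8.88% and 16.4% of all genes. Median log2 fold changes were -0.82 for the interferon-stimulated, -0.91 for the class I and -1.92 for the class II members, beside 0.08 over all genes. Every class I and class II member had a negative value, and so did 23 of the 25 interferon-stimulated members. The values of TAC 8W + Sema 4W lay wholly below those of Sham + Sema 4W in 18 members and wholly above them in 0, which held for 9.93% and 11% of all genes.

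The class II genes had the largest differences among the 7. H2-Ab1 (chr17:34257689-34269419, mm10), the beta chain of the I-A molecule, had 15.6, 17.5 and 8.5 CPM in TAC 8W + Sema 4W, against 128, 71.4 and 21.5 CPM in Sham + Sema 4W and 122, 47.7 and 87.3 CPM in Sham 4-6. Even the highest constricted heart was under the lowest sham with Sema, although the 3 shams with Sema spanned a 5.96-fold range. The log2 fold change of H2-Ab1 against Sham + Sema 4W was -2.42 ± 0.53 (SE, edgeR adjusted p = 0.0174). H2-Eb1 (chr17:34305867-34316674), the I-E beta chain, had 26.4, 25.9 and 12.9 CPM in TAC 8W + Sema 4W, against 140, 74.2 and 35.2 CPM in Sham + Sema 4W and 132, 54.8 and 105 CPM in Sham 4-6. Its values did not overlap either, and it fell by 1.95 ± 0.47 on the log2 scale (adjusted p = 0.0265). H2-Aa (chr17:34282744-34287823), the I-A alpha chain, had 30.3, 27.2 and 15.8 CPM, against 147, 97.6 and 29.8 CPM in Sham + Sema 4W and 144, 62.1 and 112 CPM in Sham 4-6. Here replicate 3 of Sham + Sema 4W lay within the constricted hearts, and the log2 fold change was -1.91 ± 0.49 (adjusted p = 0.0348). Cd74 had a value of the same size, -1.92 ± 0.57, but an adjusted p of 0.0546.

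In class I, H2-T23 (chr17:36029773-36032855), which encodes the non-classical molecule Qa-1, had 30.2, 28.4 and 15.3 CPM in TAC 8W + Sema 4W, against 77.1, 45.7 and 69.2 CPM in Sham + Sema 4W and 58.1, 29.2 and 40.6 CPM in Sham 4-6. All 3 constricted hearts lay below all 3 shams with Sema, and H2-T23 fell by 1.38 ± 0.32 on the log2 scale (adjusted p = 0.0221). Tap1 (chr17:34187553-34197225), a subunit of the transporter that carries peptides into the endoplasmic reticulum, had 6.09, 5.97 and 5.39 CPM, against 25.5, 13.2 and 9.99 CPM in Sham + Sema 4W and 24.5, 11.1 and 25.9 CPM in Sham 4-6. The constricted hearts were tightly grouped below the others, with a log2 fold change of -1.49 ± 0.41 (adjusted p = 0.0414). Tap2 (chr17:34203527-34216321), which encodes its partner subunit, had 24.1, 26.2 and 16.4 CPM, against 47.9, 34 and 40.3 CPM in Sham + Sema 4W and 45.1, 26.7 and 33.8 CPM in Sham 4-6. Its values did not overlap with those of Sham + Sema 4W, but at -0.88 ± 0.27 it did not pass the threshold (adjusted p = 0.0628). Of the heavy chains, H2-D1 (chr17:35262730-35267499) had 197, 192 and 108 CPM, against 485, 205 and 265 CPM in Sham + Sema 4W and 428, 185 and 368 CPM in Sham 4-6. The constricted hearts lay below the shams with Sema by a small gap, and the adjusted p was 0.127.

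Among the interferon-stimulated members, Gbp2 (chr3:142620602-142638008), a guanylate-binding protein of cell-autonomous immunity, had 11.7, 6.07 and 6.82 CPM in TAC 8W + Sema 4W, against 36.4, 16.8 and 12.4 CPM in Sham + Sema 4W and 31.4, 20.2 and 32.7 CPM in Sham 4-6. All the constricted hearts lay lowest, the nearest values being 11.7 and 12.4 CPM, and Gbp2 fell by 1.43 ± 0.40 on the log2 scale (adjusted p = 0.0442). Gbp3 (chr3:142560026-142573209), its neighbour in the Gbp cluster, had 4.02, 4.73 and 6.43 CPM, against 23.5, 8.96 and 13.5 CPM in Sham + Sema 4W and 17.8, 14.5 and 29.9 CPM in Sham 4-6. Its groups did not overlap, with a log2 fold change of -1.59 ± 0.44 (adjusted p = 0.0433). Irf7 (chr7:141262706-141266481), a transcription factor of the type I interferon response, had 13.8, 15.9 and 9.15 CPM, against 43.4, 22.9 and 29 CPM in Sham + Sema 4W and 32.6, 10.3 and 44.3 CPM in Sham 4-6. The constricted hearts lay below all shams with Sema, and the value of -1.30 ± 0.46 missed the threshold (adjusted p = 0.0923). Gbp7 (chr3:142530342-142550149) did not follow: it had 0.218, 0.412 and 1.69 CPM, against 0.805, 0.316 and 0 CPM in Sham + Sema 4W and 0.989, 0.326 and 2.05 CPM in Sham 4-6. These are 2 to 26 counts in the constricted hearts, and the groups overlapped throughout.

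**Figure D1:**
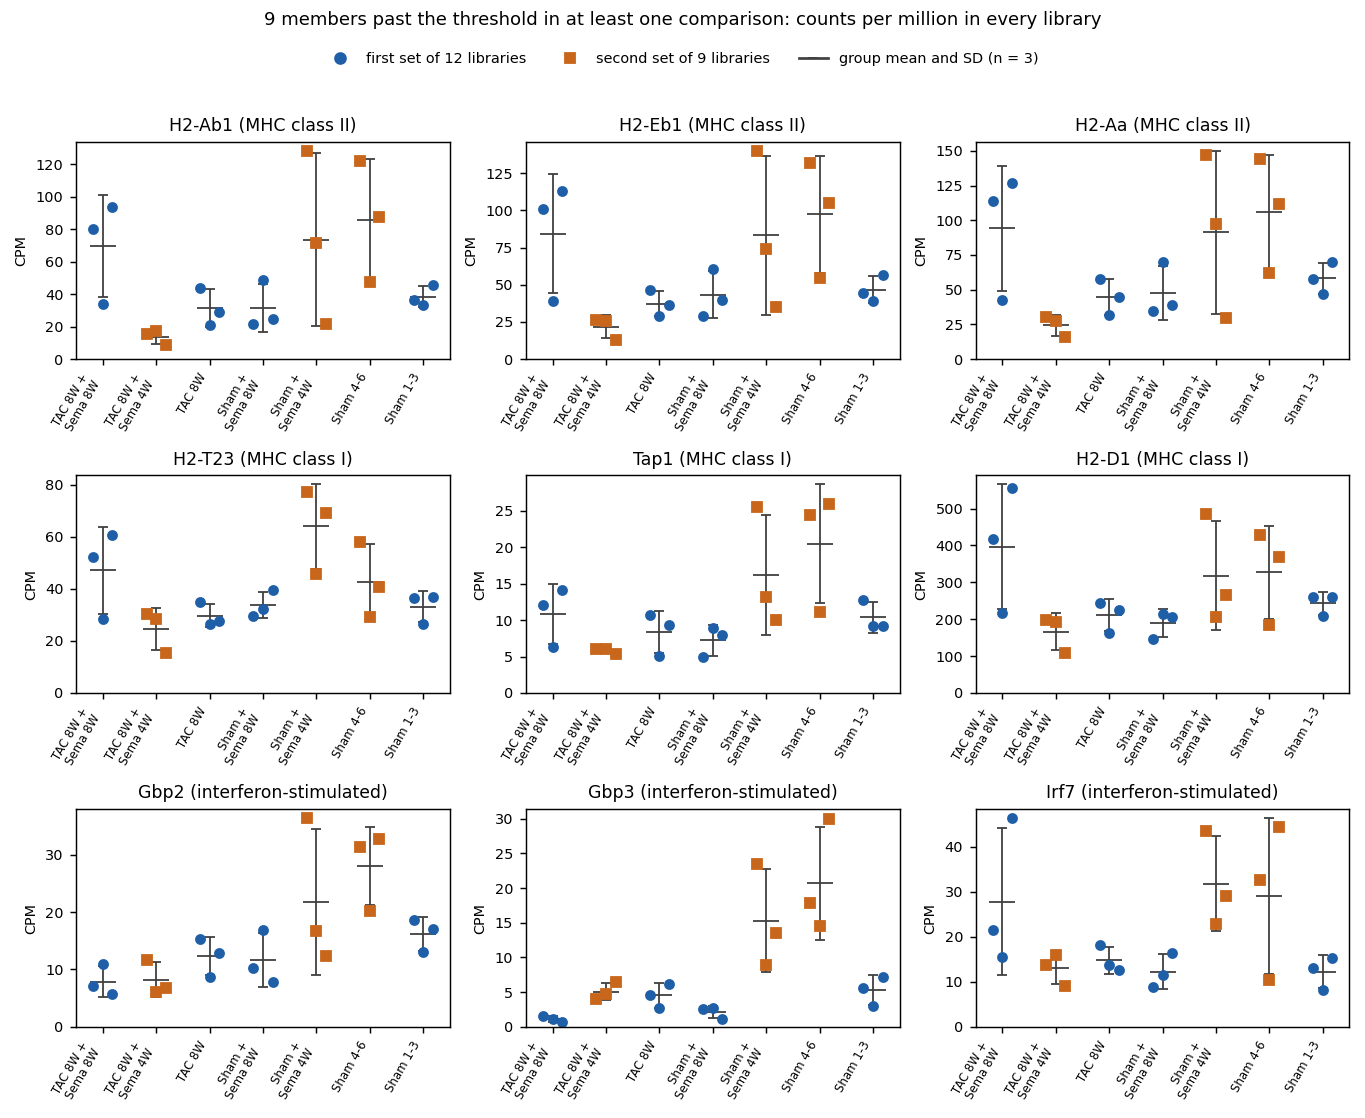
CPM (linear axis) of 9 members in every library by group, with circles for the first set of 12 libraries, squares for the second set of 9, and a bar for the mean and SD of 3 libraries. In TAC 8W + Sema 4W, H2-Ab1 stayed between 8.5 and 17.5 CPM, below all shams of the same set, while replicates 1 and 3 of TAC 8W + Sema 8W reached 80.3 and 93.9 CPM.

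These 7 calls rested on few libraries. Replicates 1 and 2 of TAC 8W + Sema 4W were close to each other, with class II sums of 115 and 111 CPM, and may not be separate mice. Counts from other fits are given here without the share of all genes that each fit called, so a higher count is not a stronger result. Without Sham + Sema 4W replicate 1, which was the highest of its group in 35 of 38 members, or with TAC 8W + Sema 4W replicate 3 left out, 0 members passed (H2-Ab1 -1.76 with adjusted p = 0.0886, and -2.16 with adjusted p = 0.051), and a fit of these groups alone also called 0, while DESeq2 called 13, limma-voom 3 and a fit with the replicate number as a block 2. The 10 macrophage markers moved with the class II members: they summed to 64.3, 116 and 121 CPM (lowest, median and highest library) in TAC 8W + Sema 4W, against 110, 243 and 365 CPM in Sham + Sema 4W, 9 of 10 had a negative fold change, the complement gene C1qa passed the threshold (-1.35 ± 0.36, adjusted p = 0.04), and none of the 10 was at 0 throughout. The 5 tested T and NK cell markers and the 2 tested B cell markers all had negative values too (medians -1.32 and -1.31), and Sham + Sema 4W replicate 1 had the highest sums of both lists among the 21 libraries (8.94 and 12.3 CPM). Only 5 of 10 listed T and NK and 2 of 8 listed B cell markers passed the count filter. No marker had a median over libraries above 0.37 CPM (T and NK cells) or 0.69 CPM (B cells). Those tested may have passed through the libraries where they were high, so their shared sign has little weight. Endothelial Tie1 also fell past the edgeR threshold (-1.03, adjusted p = 0.0347). So did fibroblast Tcf21 (-1.45, adjusted p = 0.0254) and mural Kcnj8 (-1.14, adjusted p = 0.0359). Mural cell markers summed to 257 to 272 CPM in TAC 8W + Sema 4W, against 312 to 434 CPM in Sham + Sema 4W. Dendritic cell markers overlapped (5.22 to 5.56 CPM, against 2.04 to 6.53 CPM). Lower marker levels were not limited to immune cells. The part of these cells in the result was not tested.

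The fall was set against the same contrast under Sema for 8 weeks. TAC 8W + Sema 8W against Sham + Sema 8W had the opposite balance in the MHC classes: all 8 class I and all 5 class II members had positive log2 fold changes, with medians of 0.60 and 0.98, beside -0.10 over all genes, and the interferon-stimulated median was -0.05. By edgeR 0 of 38 members passed, against 0.733% of all genes that rose and 2.36% that fell. DESeq2 and limma-voom also called 0, and 5 members were higher and 3 lower at an unadjusted p under 0.05 (5.23% and 12.1% of all genes). H2-D1 had 418, 218 and 555 CPM in TAC 8W + Sema 8W, against 147, 215 and 207 CPM in Sham + Sema 8W. These values did not overlap, by a margin of 218 against 215 CPM, and the log2 fold change was 1.07 ± 0.37 (adjusted p = 0.127). H2-Ab1 had 80.3, 34 and 93.9 CPM, against 21.6, 48.5 and 24.4 CPM, and H2-Eb1 101, 38.8 and 113 CPM, against 29.2, 60.3 and 39.9 CPM in Sham + Sema 8W. In both genes replicates 1 and 3 of the constricted hearts were high and replicate 2 lay within the shams. All 10 macrophage markers (median 0.60, 2 at an unadjusted p under 0.05) and all 5 tested T and NK cell markers (median 1.92, with few counts) had positive values as well, and their part was not tested. The count of members also stayed at 0 without Sham + Sema 8W replicate 3. GC content differed in its weight between these groups. Spearman rho over genes, of relative level with GC content, was 0.202 to 0.563 in TAC 8W + Sema 8W. In Sham + Sema 8W it was -0.253 to 0.0331. Over the other fits of all libraries or groups, removal of this trend among them, the class I median was 0.41 to 0.67. The class II median was 0.78 to 1.06.

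The difference between these 2 contrasts, TAC under Sema 4W minus TAC under Sema 8W, was tested in the same fit, a comparison added after the values were seen. It was negative past the threshold in 6 of 38 members and positive in 0, against 0.465% and 1.84% of all genes. These were H2-Ab1 (-3.56 ± 0.74, adjusted p = 0.0285), H2-Eb1 (-2.91 ± 0.65, adjusted p = 0.0332), H2-Aa (-2.89 ± 0.68, adjusted p = 0.0365), H2-T23 (-1.86 ± 0.45, adjusted p = 0.0375), H2-D1 (-2.01 ± 0.53, adjusted p = 0.0478) and Irf7 (-2.49 ± 0.64, adjusted p = 0.0461). The difference was negative in 16 members and positive in 2 at an unadjusted p under 0.05, beside 5.64% and 16.1% of all genes, and the medians were -0.67, -1.70 and -2.91 for the interferon-stimulated, class I and class II members, beside 0.21 over all genes. Markers of other cells passed the same test: C1qa (-2.25 ± 0.51, adjusted p = 0.0336) and C1qc (-2.55 ± 0.67, adjusted p = 0.0488) were negative past the threshold. All 10 macrophage markers (median -1.84) and all 5 tested T and NK cell markers (median -3.24, with few counts) had negative values, and their part was not tested. Since each duration of Sema belongs to its own set of libraries, the duration and the set cannot be told apart in this difference. Leaving out Sham + Sema 8W replicate 1, Sham + Sema 4W replicate 1 or TAC 8W + Sema 8W replicate 3 gave a count of 0, leaving out TAC 8W + Sema 8W replicate 1 gave 1 and leaving out TAC 8W + Sema 4W replicate 3 gave 3, and the count was also 0 with a replicate block, in a fit of the groups compared alone and after removal of the trends with GC content and length.

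Constriction without Sema changed no member past the threshold. In TAC 8W against Sham 1-3, the shams of the same set of libraries, edgeR, DESeq2 and limma-voom each called 0 of 38 members, while edgeR called 1.55% of all genes higher and 0.646% lower. At an unadjusted p under 0.05, 1 member was higher and 1 lower, against 7.97% and 4.07% of all genes. The first was Isg15, a ubiquitin-like protein that is conjugated to others during the interferon response, with 6.77, 6.38 and 7.74 CPM in TAC 8W, against 2.83, 3.32 and 5.34 CPM in Sham 1-3 (0.87 ± 0.40, adjusted p = 0.378). The other was the transcription factor Irf1, with 6.92, 7.45 and 9.35 CPM in TAC 8W, against 15.7, 12.7 and 11.1 CPM in Sham 1-3 (-0.74 ± 0.28, adjusted p = 0.25). Both pairs of groups were free of overlap, which held for 1 member with higher values in TAC 8W and 4 with lower ones, beside 11.6% and 8.7% of all genes. The medians were 0.04 for the interferon-stimulated, -0.19 for the class I and -0.30 for the class II members, with 0.08 over all genes.

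Igtp, an immunity-related GTPase whose annotated gene shares 7974 bases on the same strand with its relative Irgm2, was the member of the constriction contrast whose call moved with the settings. It had 8.62, 8.87 and 9.73 CPM in TAC 8W, against 21.6, 21.4 and 18.8 CPM in Sham 1-3. The groups were tight and well apart, and the log2 fold change of -1.19 ± 0.60 had an adjusted p of 0.454 in the fit of all groups, which shares 1 spread per gene. Igtp ranged more widely in other groups, for example between 18.1 and 99.9 CPM in Sham + Sema 4W. A fit of TAC 8W and Sham 1-3 alone called it, as did a fit with all 6 shams as 1 group.

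Sema for 8 weeks in constricted hearts (TAC 8W + Sema 8W against TAC 8W) went with a fall of 2 GBPs. Past the threshold 2 of 38 members fell, Gbp3 and Gbp7, and 0 rose, against 5.15% of all genes that fell and 0.497% that rose, so the share of members that fell was close to the background. Gbp3 had 1.49, 1.06 and 0.622 CPM in TAC 8W + Sema 8W and 4.65, 2.66 and 6.21 CPM in TAC 8W, with 2.52, 2.69 and 1.18 CPM in Sham + Sema 8W and 5.66, 2.96 and 7.24 CPM in Sham 1-3. All 3 constricted hearts with Sema lay below all 3 without it, and the log2 fold change was -2.07 ± 0.47 (edgeR adjusted p = 0.0119). Gbp7 had 1 count in all in TAC 8W + Sema 8W (0.0575, 0 and 0 CPM), against 48 counts in TAC 8W (1.19, 0.355 and 0.996 CPM), with 0.631, 0.354 and 0 CPM in Sham + Sema 8W and 0.566, 0.544 and 0.493 CPM in Sham 1-3. The ratio of its summed levels was 0.0203, with an exact 95% counting interval of 0.000503 to 0.119 that leaves out the spread between libraries, and its adjusted p was 0.0213.

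Gbp2, by contrast, had 7.07, 10.9 and 5.74 CPM in TAC 8W + Sema 8W, against 15.3, 8.69 and 12.8 CPM in TAC 8W, with 10.3, 16.9 and 7.78 CPM in Sham + Sema 8W and 18.7, 13 and 17 CPM in Sham 1-3. Its groups overlapped (-0.64 ± 0.39, adjusted p = 0.387). Igtp had values in the other direction, with 40.3, 12.3 and 58 CPM in TAC 8W + Sema 8W, all above the values in TAC 8W (2.02 ± 0.61, adjusted p = 0.0552). Without adjustment, 6 members were lower and 8 higher at a p under 0.05, against 16.1% and 3.78% of all genes. The 6 lower ones were all interferon-stimulated: the RNA-binding antiviral proteins Ifit1 and Ifit2, Ifi44, the RNA sensor Ifih1, Gbp3 and Gbp7. The 8 higher ones were Igtp and its relative Irgm1 and the MHC genes H2-K1, H2-D1, H2-T23, H2-Aa, H2-Ab1 and H2-Eb1.

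The high MHC values of this contrast came from 2 of the 3 hearts. H2-Ab1 had 80.3, 34 and 93.9 CPM in TAC 8W + Sema 8W, against 44.1, 20.7 and 29.3 CPM in TAC 8W, with 36.1, 33.6 and 45.9 CPM in Sham 1-3. H2-Eb1 had 101, 38.8 and 113 CPM, against 46.3, 29.3 and 36.6 CPM in TAC 8W and 44.5, 39 and 56.5 CPM in Sham 1-3, and H2-Aa 114, 42.6 and 127 CPM, against 57.9, 31.8 and 44.7 CPM in TAC 8W, 34.6, 69.8 and 38.6 CPM in Sham + Sema 8W and 57.7, 47.2 and 69.6 CPM in Sham 1-3. Replicates 1 and 3 stood above every heart of TAC 8W and Sham 1-3 in all 3 genes, and replicate 2 stood among them. Replicate 2 was also the lowest in 6 of the 8 class I genes, Tapbp and Nlrc5 being the exceptions. H2-T23 had 52.3, 28.5 and 60.5 CPM in TAC 8W + Sema 8W, against 34.9, 26.5 and 27.7 CPM in TAC 8W, 29.7, 32.1 and 39.4 CPM in Sham + Sema 8W and 36.4, 26.6 and 36.8 CPM in Sham 1-3. Likewise Tap1 had 12.1, 6.26 and 14.2 CPM, against 10.7, 5.14 and 9.27 CPM in TAC 8W, 4.87, 8.85 and 7.95 CPM in Sham + Sema 8W and 12.8, 9.18 and 9.13 CPM in Sham 1-3. Irf7 was high in 1 heart only, with 21.4, 15.6 and 46.4 CPM, against 18.2, 13.7 and 12.6 CPM in TAC 8W, 8.74, 11.5 and 16.4 CPM in Sham + Sema 8W and 13.1, 8.16 and 15.3 CPM in Sham 1-3. None of these genes passed the threshold (adjusted p 0.145 for H2-Eb1, 0.208 for H2-Aa and 0.209 for H2-Ab1). H2-D1 was at 243, 162 and 226 CPM in TAC 8W and at 261, 208 and 260 CPM in Sham 1-3, and Tap2 had 24.3, 18.7 and 32.7 CPM in TAC 8W + Sema 8W, against 18.3, 18.4 and 23.1 CPM in TAC 8W, 22, 21.6 and 31.1 CPM in Sham + Sema 8W and 30.4, 24.8 and 19.8 CPM in Sham 1-3. The Tap2 groups overlapped in this set, unlike those of the 4-week set.

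GC content moved with the direction. The transcripts of the 6 lower members had 40.4% to 45.9% GC, and those of the 8 higher ones 45.6% to 57.3%. The level of a gene in TAC 8W + Sema 8W relative to its mean over all libraries ran with its GC content (Spearman rho over genes 0.202 to 0.563, highest in replicate 3), while in TAC 8W it ran in the opposite direction (-0.17 to -0.0771). Once the GC content and length trends of every library were taken out, Gbp3 still passed (-1.83, adjusted p = 0.0296) and Gbp7 did not (-4.17, adjusted p = 0.0722), and the class II median was 0.67 in place of 1.12. The count of 2 members was 0 if TAC 8W replicate 1 or TAC 8W + Sema 8W replicate 3 was left out, 1 if TAC 8W replicate 3 or TAC 8W + Sema 8W replicate 1 was, 5 if TAC 8W replicate 2 was, 4 by DESeq2 and 1 with a replicate block. In a fit of these groups alone the 2 calls were Gbp7 and Igtp, and Gbp3 was lost.

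**Figure D2:**
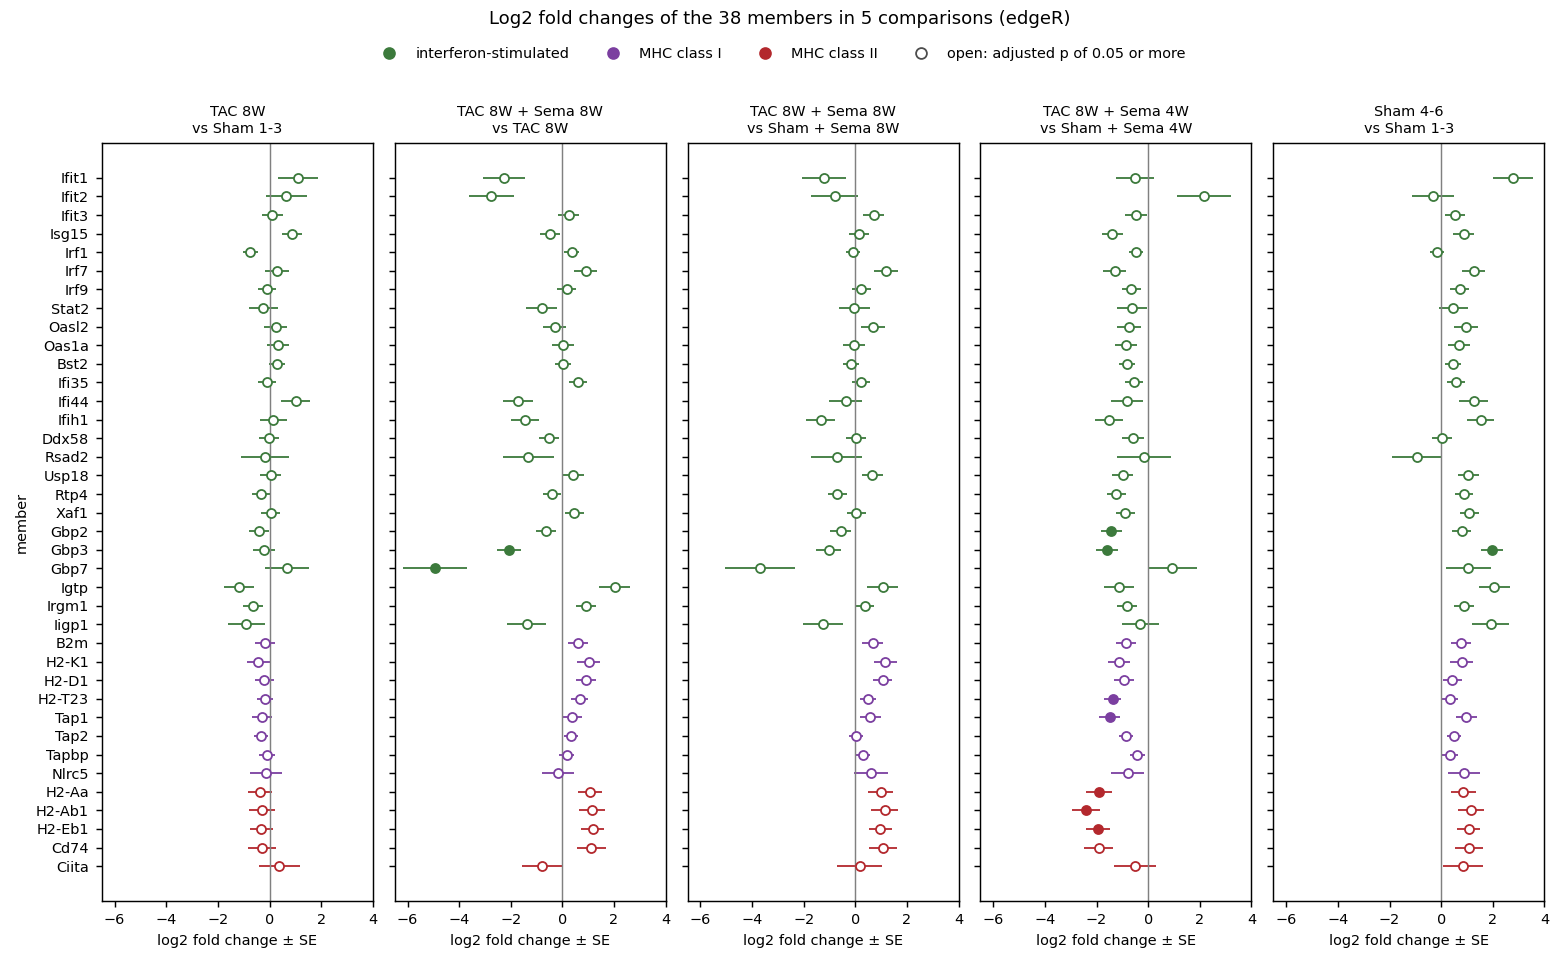
Log2 fold changes with their standard errors (edgeR) for all 38 members in 5 comparisons, coloured by class, with filled circles for an adjusted p under 0.05. The class II members lie near -1.92 (median) in TAC 8W + Sema 4W against Sham + Sema 4W and near 0.98 in TAC 8W + Sema 8W against Sham + Sema 8W, where no circle is filled.

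Whether Sema for 8 weeks acted differently in constricted and sham-operated hearts was asked by the interaction of TAC and Sema 8W. It passed the threshold in 0 of 38 members by edgeR, DESeq2 and limma-voom, with 0.0552% of all genes positive and 0.441% negative by edgeR. At an unadjusted p under 0.05, 3 members were positive (Igtp 2.24 ± 0.84, H2-K1 1.58 ± 0.62 and H2-D1 1.27 ± 0.52) and Gbp7 negative, against 1.64% and 9.32% of all genes. The medians were -0.17 for the interferon-stimulated, 0.80 for the class I and 1.35 for the class II members, beside -0.16 over all genes.

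Late Sema in constricted hearts (TAC 8W + Sema 4W against TAC 8W) compares libraries of the 2 sets, so that treatment and set cannot be told apart. By edgeR 0 of 38 members passed, against 4.19% of all genes that rose and 3% that fell, and DESeq2 and limma-voom called 0 as well. At an unadjusted p under 0.05, Igtp was higher and 4 members were lower, against 12.1% and 11.9% of all genes: Isg15 (-0.92 ± 0.40), Ifi44, the RNA sensor Ddx58 and H2-Ab1 (-1.19 ± 0.52, adjusted p = 0.164). H2-Ab1, H2-Eb1 and H2-Aa each had all 3 values of TAC 8W + Sema 4W below all 3 of TAC 8W, by small gaps (17.5 against 20.7, 26.4 against 29.3 and 30.3 against 31.8 CPM). A lack of overlap between the sets was common: from Sham 1-3 to Sham 4-6, 18.9% of all genes lay wholly lower and 18.4% wholly higher. The class II median was -0.88, and it was -1.85 when the shams of each set were used to take the set out. In that fit Igtp turned round, with -0.78 in place of 1.28. Removal of the trends with GC content and length called 3 members (Isg15, Bst2 and H2-Ab1), and leaving out TAC 8W + Sema 4W replicate 3 called 2 (Ifit2 and Rsad2). The macrophage markers were again lower, at 64.3 to 121 CPM in TAC 8W + Sema 4W, against 106 to 426 CPM in TAC 8W, with all 10 fold changes negative and 2 past the threshold (Adgre1 and C1qc). Endothelial Kdr and, among the fibroblast markers, Col1a1, Col1a2 and Dpt also fell past it.

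In sham-operated hearts Sema changed no member past the threshold, and edgeR called 0% of all genes in either direction at both durations. In Sham + Sema 8W against Sham 1-3, 30 of 38 members had a negative value (median -0.26, beside -0.01 over all genes), and 1 member was lower and 0 higher at an unadjusted p under 0.05, against 1.28% and 2.33% of all genes. That member was Gbp3, whose 3 values under Sema lay below the 3 without it (-1.25 ± 0.46, adjusted p = 0.892). In Sham + Sema 4W against Sham 4-6, 28 of 38 were negative (median -0.26, beside -0.07 over all genes), and 3 members were lower and 0 higher at an unadjusted p under 0.05, against 9.07% and 5.09% of all genes. These were Iigp1, an immunity-related GTPase (-2.01 ± 0.73), Ifit2 (-2.78 ± 1.03) and Irgm1 (-0.84 ± 0.38), each with an adjusted p of 0.347. Ifit2 had 8, 0 and 0 counts in Sham + Sema 4W, against 22, 12 and 49 counts in Sham 4-6. DESeq2 and limma-voom called 0 members in both comparisons.

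The shams themselves differed. In Sham 4-6 against Sham 1-3, which share operation and vehicle but lie in different sets of libraries, 35 of 38 members had higher values, including all 8 class I and all 5 class II members. The medians were 0.89 for the interferon-stimulated, 0.63 for the class I and 1.06 for the class II members, beside 0.03 over all genes. Gbp3 had 17.8, 14.5 and 29.9 CPM in Sham 4-6, against 5.66, 2.96 and 7.24 CPM in Sham 1-3, with no overlap, and rose past the threshold by 1.98 ± 0.44 on the log2 scale (adjusted p = 0.0172). It was the only member to do so and 0 fell, against 2.81% of all genes that rose and 0.481% that fell, so this count was close to the background. At an unadjusted p under 0.05, 16 members were higher and 0 lower, beside 10.4% and 8.1% of all genes, and in 8 members the groups were free of overlap with Sham 4-6 higher (18.4% of all genes, and 18.9% for the other direction, which no member showed). The count of 8 was also near the share of all genes.

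Within Sham 4-6 the hearts differed among themselves. Replicate 5 was the lowest of its group in 35 of 38 members, and replicate 6 was the highest in 24. Ifit1 had 4.4, 3.72 and 12.6 CPM, against 0.817, 0.725 and 1.48 CPM in Sham 1-3, and Iigp1 had 10.2, 13.2 and 55.7 CPM, against 8.24, 5.86 and 6.74 CPM in Sham 1-3. Neither passed (2.79 ± 0.78 with adjusted p = 0.0529, and 1.92 ± 0.72 with adjusted p = 0.156). The count of 1 was 0 without Sham 1-3 replicate 1 or 2 or Sham 4-6 replicate 6 and 3 without Sham 4-6 replicate 5, and it was 9 in a fit of the 6 shams alone.

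**Figure D3:**
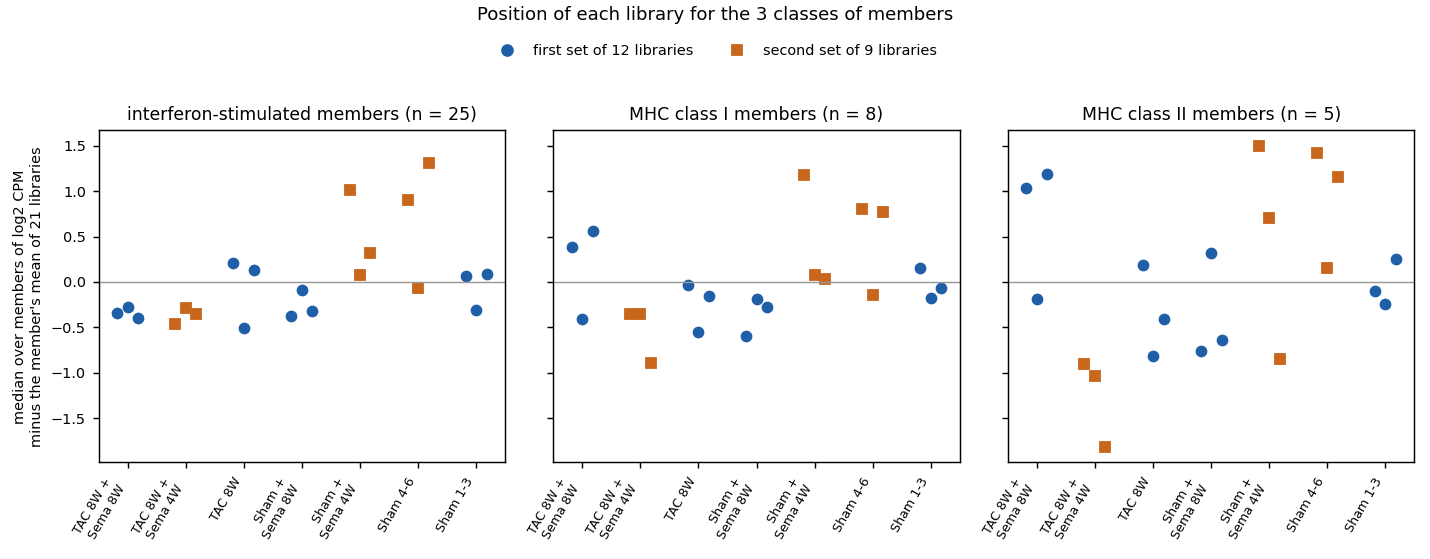
Median over the members of a class of log2 CPM minus each member's mean over the 21 libraries, for every library by group (circles, first set; squares, second set). In Sham 4-6 the interferon-stimulated medians were 0.90, -0.07 and 1.31, and in TAC 8W + Sema 4W the class II medians were -0.90, -1.04 and -1.82, the lowest of the 21 libraries, next to -0.85 in Sham + Sema 4W replicate 3.

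The 3 classes shared much of the difference between hearts of 1 group. Sham + Sema 4W replicate 1 was the highest of its group in 22 of 25 interferon-stimulated, 8 of 8 class I and 5 of 5 class II members. Replicate 3 of that group had interferon-stimulated genes above their mean over all libraries (0.32) and class II genes below it (-0.85). TAC 8W + Sema 8W split the classes in another way: in replicates 1 and 3 the interferon-stimulated medians were -0.34 and -0.40, while the class I medians were 0.39 and 0.56 and the class II medians 1.03 and 1.19. The closest replicate pair of any group lay in TAC 8W + Sema 4W, and it too differed by more than counting noise (chi-square per degree of freedom over genes 6.5). In that group the macrophage markers of replicates 1 and 2 summed to 121 and 116 CPM and the red cell markers to 899 and 895 CPM. A difference above counting noise cannot tell 2 hearts from 2 preparations of 1 heart.

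Macrophage markers were set beside the class II members in each library. They summed to between 64.3 CPM, in TAC 8W + Sema 4W replicate 3, where the class II members summed to 61.4 CPM, and 509 CPM, in TAC 8W + Sema 8W replicate 3, where class II summed to 538 CPM. The relation was not fixed: TAC 8W replicate 1 had 426 CPM of macrophage markers and 248 CPM of class II members, and Sham + Sema 4W replicate 1 had 365 and 653 CPM. In Sham 4-6 the macrophage markers summed to 262 to 368 CPM, against 225 to 318 CPM in Sham 1-3, and the class II members to 279 to 638 CPM, against 195 to 271 CPM. Dendritic cell markers summed to at most 8.5 CPM in any library, and 4 of 8 (Flt3, Xcr1, Cd209a and Siglech) failed the count filter, but none of the 8 was at 0 throughout. The 5 T and NK cell markers that passed the filter all had positive values for TAC 8W + Sema 8W against TAC 8W (median 1.77) and for Sham 4-6 against Sham 1-3 (median 1.23), with 0 past the threshold and 0 at an unadjusted p under 0.05. Their list summed to at most 8.94 CPM in any library, and the part of any cell type in the differences was not tested.

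**Figure D4:**
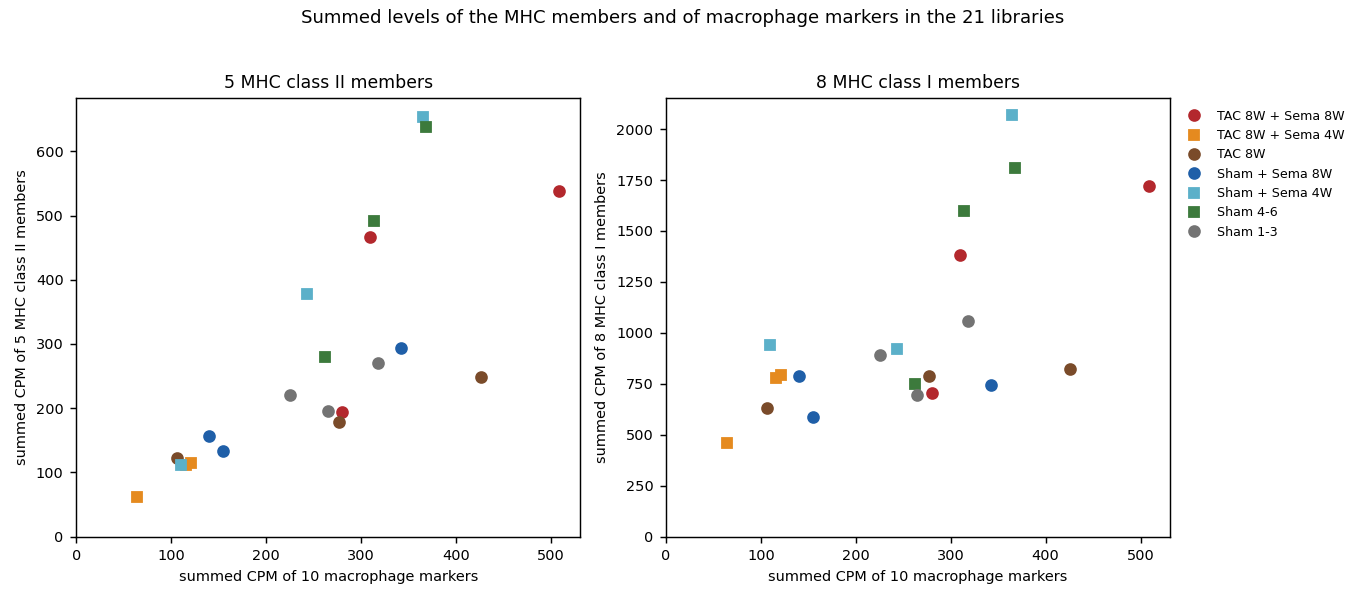
Summed CPM of the 5 class II members (left) and of the 8 class I members (right) against the summed CPM of 10 macrophage markers, 1 point per library coloured by group (circles, first set; squares, second set). The 3 libraries of TAC 8W + Sema 4W sit at the lower left, with macrophage sums of 64.3 to 121 CPM and class II sums of 61.4 to 115 CPM.

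Other genes of the pathway were taken from lists. Of 19 interferon receptors and signalling genes, the kinase Jak2 (-1.76 ± 0.44) and the phosphatase Ptpn2 (-1.27 ± 0.34) fell in TAC 8W + Sema 8W against TAC 8W, where 5.15% of all genes fell, and Ptpn2 rose (1.67 ± 0.34) in TAC 8W + Sema 4W against TAC 8W, where 4.19% of all genes rose. Of 15 tested nucleic acid sensing genes, the adaptor Myd88 rose in TAC 8W + Sema 4W against Sham + Sema 4W (0.99 ± 0.27, adjusted p = 0.0439), where 3.37% of all genes rose. In any comparison 0 others were called. Of 47 further interferon-stimulated genes tested, 5 rose in Sham 4-6 against Sham 1-3, among them Herc6 (2.12 ± 0.49), Samd9l (2.04 ± 0.48) and the antiviral GTPase Mx2 (1.99 ± 0.47), and 21 were higher at an unadjusted p under 0.05, with a median of 0.81. Of all genes 2.81% rose and 10.4% were higher without adjustment in that comparison. The 2 that fell in TAC 8W + Sema 8W against TAC 8W were Ifi203 (-2.61 ± 0.50) and Gbp9 (-2.86 ± 0.57), and Gbp9 also fell against Sham + Sema 8W (-2.17 ± 0.58), where 2.36% of all genes fell. A count of 2 of 47 was no more than the 5.15% of all genes that fell against TAC 8W. Against TAC 8W, 3 of the 47 rose in TAC 8W + Sema 4W: Gbp6 (2.06 ± 0.53), Ifi207 (1.51 ± 0.39) and Ifi204 (1.21 ± 0.35), near the 4.19% of all genes that rose. The GTPase gene Tgtp2 alone of the 47 fell in TAC 8W + Sema 4W against Sham + Sema 4W (-1.68 ± 0.46), where 1.44% of all genes fell. There 14 of the 47 were lower and 0 higher at an unadjusted p under 0.05, against 8.88% and 16.4% of all genes.

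The 15 genes of the immunoproteasome and class I peptide loading had 2 members that fell, 0 that rose and a median of -0.93 in TAC 8W + Sema 4W against Sham + Sema 4W, where 1.44% of all genes fell and 3.37% rose. The 2 were Psmb9, an inducible catalytic subunit of the proteasome that lies beside Tap1 and shares 212 bases with it (-1.78 ± 0.38, adjusted p = 0.0152), and Tapbpl, which edits the peptides bound to class I (-1.15 ± 0.28, adjusted p = 0.0273). The chaperone Pdia3 fell in TAC 8W + Sema 8W against TAC 8W (-0.97 ± 0.26) and against Sham + Sema 8W (-1.04 ± 0.26), where 5.15% and 2.36% of all genes fell. Of 11 tested class II loading genes and regulators, 0 passed in any comparison by edgeR, and in TAC 8W + Sema 4W against Sham + Sema 4W their median was -0.27, with 1 lower and 0 higher at an unadjusted p under 0.05, against 8.88% and 16.4% of all genes.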

How the data were processed

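RNA-seq libraries of left ventricular tissue (21 libraries, 7 groups with the shams apart) were analysed from the gene counts. The deposited values are raw counts per gene, which the authors made with cutadapt 1.11 (trimming), hisat2 (alignment to mm10) and featureCounts 1.6.0 (counting). The sources used here do not give the strand setting or the annotation, so counts of near-identical genes (H2 genes, GBPs, Oas1a, Ifit3) and of overlapping genes (Igtp with Irgm2, Tapbp with Zbtb22, B2m with Patl2, Ciita with Dexi) are uncertain. GENCODE M21 named 22041 of 22136 genes.

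Genes with at least 10 counts in 3 libraries were scaled by TMM and fitted together in edgeR 4.0.16 (R 4.3.3, quasi-likelihood test), with 1 mean per group and two-sided p-values adjusted by the Benjamini-Hochberg method (threshold 0.05). SE is the standard error implied by the test, the absolute log2 fold change divided by the square root of its F statistic. It restates the test and is rough for members with few counts. Logged CPM values use a prior count of 2. The common biological coefficient of variation was 34.6%. On data simulated for TAC 8W vs Sham 1-3 (12452 genes), 62.9% of 4-fold and 9.18% of 2-fold changes were recovered.

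The members and lists were chosen with earlier results of these data known. The members given by library are those past the threshold in any comparison, and in a class with fewer than 3 such members further ones by smallest p; others named were chosen after their values were seen, as was the comparison of both durations. Up to 3 called genes of a list were named by smallest p. Promoters are from RefSeq. The labels share replicate numbers between groups, but no sign of pairs was seen: among same-numbered libraries 11 of 45 correlations exceeded 0.1 (mean -0.0257, against 0.0107 for different numbers). With 3 libraries a group these correlations cannot exclude a shared batch. Alternatives were DESeq2 1.42.0, limma-voom (limma 3.58.1), upper quartile or RLE factors, filterByExpr, no filter, only the groups compared, all 6 shams as 1 group, a term for the set, a replicate block, no mitochondrial genes, each library left out in turn, and GC content and length trends removed with splines (5 degrees of freedom). No columns were left over, and nothing was pooled.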

Additional observations from a re-analysis of the deposited data

Results flagged for a closer look

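The effect of constriction differed between the durations of Sema, by a test of the difference itself (TAC under Sema 4W minus TAC under Sema 8W, edgeR), in 6 of 38 members. All 6 were negative, against 0.465% of all genes. This comparison was added after the values were seen, and several alternative fits called no member. The log2 differences were -2.492 for Irf7, -2.009 for H2-D1, -1.864 for H2-T23, -2.89 for H2-Aa, -3.555 for H2-Ab1 and -2.912 for H2-Eb1. The values of TAC 8W + Sema 4W lay below all those of Sham + Sema 4W in 5 of these genes and overlapped in H2-Aa, and replicates 1 and 3 of TAC 8W + Sema 8W lay above every heart of Sham + Sema 8W in all 6. These are the values that the test itself used. Of all genes, 9.93% lay wholly below in TAC 8W + Sema 4W against Sham + Sema 4W. The macrophage markers C1qa (-2.253) and C1qc (-2.55) were negative past the threshold in the same test. All 10 macrophage markers and all 5 tested T and NK cell markers, the latter with few counts, had negative values. Their part was not tested. Duration and set of libraries cannot be told apart here.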

How the results depend on the processing

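Of the 10 counts of members past the threshold, those of TAC 8W + Sema 8W against Sham + Sema 8W, of the interaction and of Sema in shams at both durations stayed at 0 under every alternative run. In TAC 8W vs Sham 1-3 the count of 0 became 1 with only the groups compared and with all 6 shams as 1 group (0 to 0 over left-out libraries). Under Sema for 8 weeks in constricted hearts the count of 2 became 4 by DESeq2, 1 with the replicate block and 1 without the GC content and length trends (0 to 5 over left-out libraries). For late Sema in constricted hearts, against TAC 8W, the count of 0 became 3 without those trends (0 to 2 over left-out libraries), and Igtp reversed to -0.783 when a set term was fitted, which by construction takes the difference between the shams out. In TAC 8W + Sema 4W vs Sham + Sema 4W the count of 7 became 13 by DESeq2, 3 by limma-voom, 0 with only the groups compared and 2 with the replicate block (0 to 8 over left-out libraries). In Sham 4-6 vs Sham 1-3 the count of 1 became 3 by DESeq2, 2 by limma-voom, 3 with no count filter, 9 with only the groups compared, 2 without the mitochondrial genes and 4 without the GC content and length trends (0 to 3 over left-out libraries). The added difference between durations (6) became 9 by DESeq2 and with no count filter, 7 without the mitochondrial genes, 3 by limma-voom and 0 with only the groups compared, with the replicate block and without the trends (0 to 9 over left-out libraries). Where no cause follows from the construction (fewer libraries, another set term), the cause was not tested. The same-numbered libraries are not pairs, so a call lost under the block is no weaker effect. The counts under the alternatives stand without the share of all genes that each alternative called, so a higher count is not a stronger result. A block or a set term was not run where Sham 4-6 enters, whose numbers no other group has. With 3 libraries a group, 9.18% of simulated 2-fold changes were recovered, which limits what a count of 0 can show, and members with few counts, such as Gbp7, Ciita and Rsad2, were the least precise.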
